A study of Mus musculus with 3 samples.

Results

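The Rhox cluster is a block of X-linked homeobox genes, and its members were taken here as every chromosome X gene in the RefSeq table of assembly GRCm38.p6 (mm10) whose symbol starts with Rhox. The rule found 42 of the 2512 genes on chromosome X, between X:37213804 and X:38306028, a span of 1.09 Mb. They comprised 9 single-copy genes (Rhox1, Rhox5, Rhox6, Rhox8, Rhox9, Rhox10, Rhox11, Rhox12 and Rhox13), 25 copies of Rhox2, Rhox3 and Rhox4, the related Rhox7a and Rhox7b, and 6 other pseudogene-type entries. Copies of 1 family share sequence, so they are described apart from the single-copy genes. The rule used names and positions only.

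Rhox genes encode homeodomain transcription factors of the reproductive tract, the placenta and early embryonic cells. The cluster is silent in most somatic tissues, where DNA methylation is known to help keep it off. The genes fall into the alpha (Rhox1 to Rhox4), beta (Rhox5 to Rhox9) and gamma (Rhox10 to Rhox13) subclusters. LSD1 (Kdm1a) is a demethylase that removes methyl groups from histone tails and works within repressor complexes, and chromatin bound to it was isolated with an antibody.

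Each of the 3 groups held 1 library. MEF was mouse embryonic fibroblasts at day 0. LowK and MidK were fibroblasts that had received SeVdp(fKOSMaB), a Sendai virus reprogramming vector. Both were taken at day 20 and are labelled as reprogramming cells. LowK had no Shield1, and MidK had 30 nM of this ligand, which stabilises proteins that carry a destabilising domain. Vector and time differ together between MEF and the other two. Neither the strain of the variant base nor the number of animals behind the fibroblasts is given in the sources used here. LSD1 reads are not expression, so cell type markers could not check these labels.

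The files list positions on chromosome X where at least 1 read carried a variant base, with the reads of the B6 base and of the variant base. For MEF, LowK and MidK in this order, 411944, 186841 and 119257 single-base sites held 883058, 295240 and 203350 reads, or 2.14, 1.58 and 1.71 per site. A read that covers several sites is counted at each, so intervals, which cover counting error only, are too narrow. No input library was used, and with 1 library per group no difference has a replicate check or a p-value. A window is the gene with 5 kb added at each end. Reads per 10000 library reads were compared relative to the median X gene. A call of higher or lower needed a 2-fold difference, exact 95% Poisson intervals that lay apart and 30 reads in 1 of both libraries. The rule was also applied to library totals without the median gene, and to the deepest site of every 300 bp, here called thinned sites. Where they change a call, values are also given for the gene body alone, for sites whose deposited reliability score was at least 20, without the deepest 1% of sites, and from variant reads alone, a setting chosen after seeing the data.

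Sequences of the copies are shown first, because a short read from such a stretch fits more than 1 gene. RefSeq promoters of GRCm38.p6 (250 bases before to 50 after a gene's start) were matched for 28 of the 42 members. Each of the 6 Rhox4 promoters below holds a matching stretch of 70 bases. Capitals mark bases that differ from the most common base of the 6, and each is written 5′ to 3′ on the gene's strand:
Rhox4a2 (chrX:37390610-37390679, plus strand): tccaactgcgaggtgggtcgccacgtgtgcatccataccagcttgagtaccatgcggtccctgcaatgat
Rhox4b (chrX:37432249-37432318, plus strand): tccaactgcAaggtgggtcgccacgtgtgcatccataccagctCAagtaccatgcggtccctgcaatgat
Rhox4c (chrX:37480102-37480171, plus strand): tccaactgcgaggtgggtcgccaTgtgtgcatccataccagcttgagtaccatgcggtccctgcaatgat
Rhox4e (chrX:37557195-37557264, plus strand): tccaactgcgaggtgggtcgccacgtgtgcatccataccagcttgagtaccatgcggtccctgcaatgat
Rhox4f (chrX:37607854-37607923, minus strand): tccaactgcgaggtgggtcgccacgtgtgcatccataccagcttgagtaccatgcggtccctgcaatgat
Rhox4g (chrX:37651472-37651541, minus strand): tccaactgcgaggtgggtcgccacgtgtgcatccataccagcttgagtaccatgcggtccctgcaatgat

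The stretches of Rhox4a2, Rhox4e, Rhox4f and Rhox4g had 0 differences, Rhox4c had 1 and Rhox4b had 3. The E-box letters CACGTG, which read the same on both strands, stood in 5 of the 7 Rhox4 promoters, against 7.15% of the 32851 mouse promoters of that length. The base of Rhox4c marked above falls within them. The GC-box letters CCGCCC, searched on both strands, stood in 7 of the 7 Rhox4 promoters and in 35.7% of all promoters. The KLF-type letters CACACCC, also searched on both strands, stood in 0 of the 7 and in 7.95% of all. These are matches of letters, not binding sites. Rhox4 promoters held a median of 10 CG dinucleotides, Rhox2 promoters 8 and Rhox3 promoters 3, with 7 over all mouse promoters.

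Other copies shared whole promoters. All 251 of the 50-base words in the promoters of Rhox2a, Rhox3a and Rhox3h recurred in the promoter of another Rhox gene. The share was 23.9% for Rhox2g, 33.1% for Rhox2h and 14.7% for Rhox3c, and 0 of 251 words recurred for each of Rhox1, Rhox5, Rhox10, Rhox11, Rhox12 and Rhox13.

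Listed sites were sparse over the copies. In MEF they stood at 9.87 per 10 kb in the merged Rhox2, Rhox3 and Rhox4 windows, against 28.3 in the single-copy Rhox windows, 29.6 in the windows of 28 neighbouring protein-coding genes within 1 Mb and 24.5 over chromosome X. LowK had 4.37, 17.9, 15.4 and 11.1, and MidK had 3.75, 8.37, 7.20 and 7.11, so copies had the lowest density of these regions in each library. No library listed a site over 160.9 kb from X:37251363 to X:37412306, a stretch that holds Rhox4a, Rhox3a2 and Rhox4a2 and ranks 25 among 651847 intervals between listed sites on the chromosome. Stretches of 50.3 kb without a site lay before the Rhox5 start and, largely, within its annotated body. Whether the assembly has known bases there was not analysed here.

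**Figure D1:**
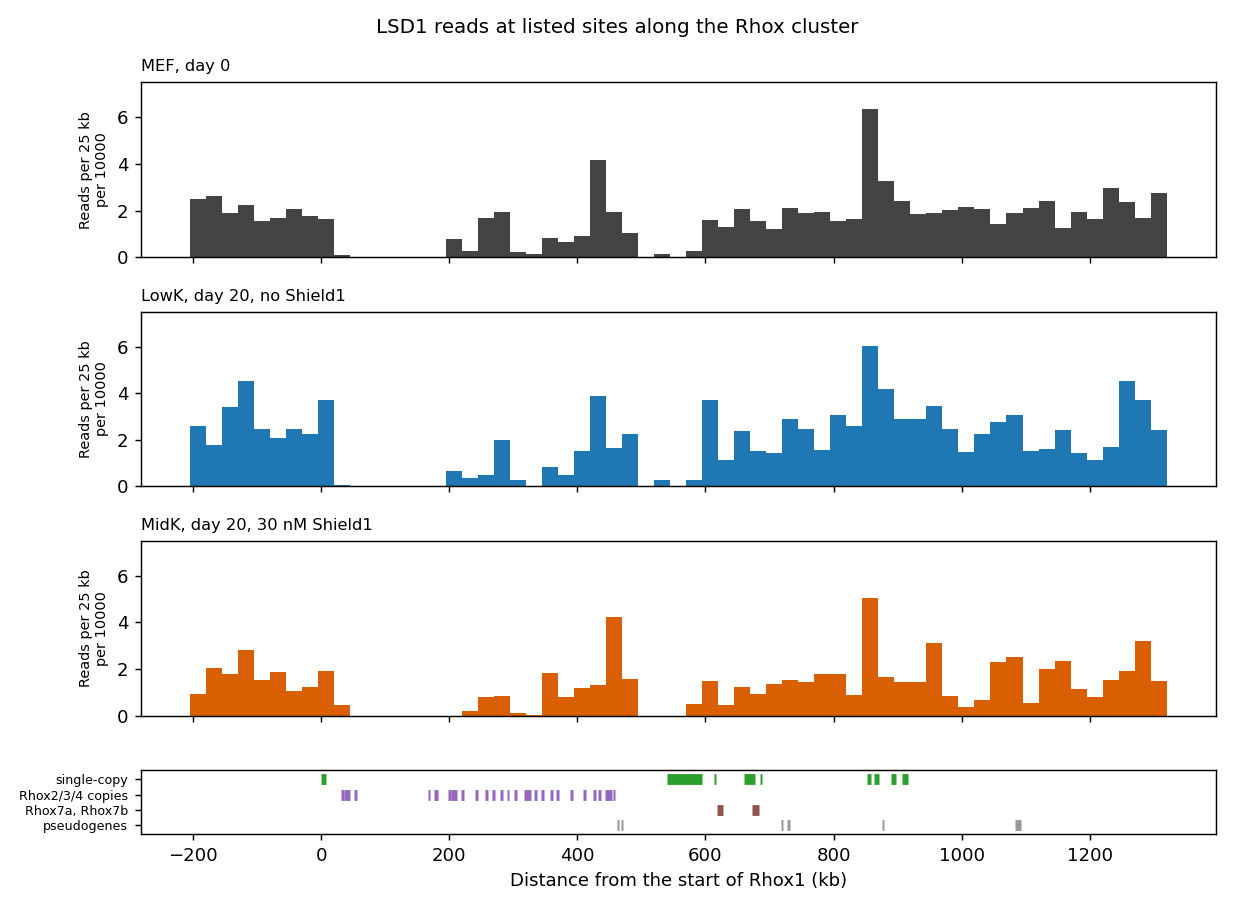
LSD1 reads per 25 kb along the Rhox cluster in reads per 10000 library reads, for each of the 3 libraries, with the genes drawn below by kind and the x axis in kb from the start of Rhox1. The empty stretch over the first copies, with 0 reads at Rhox4a, Rhox3a2 and Rhox4a2, and the tall bar at Rhox10 and Rhox11 appear in each library.

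The single-copy genes were read in every library and are given first, in the order of their subclusters. Rhox10 stood highest of the 9 in each library. Rhox12 was nearly empty of reads in MidK, and Rhox1, Rhox5 and Rhox6 held a larger share of the LowK reads than of the MEF reads. The other single-copy genes met the call rule in none of the comparisons.

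**Figure D2:**
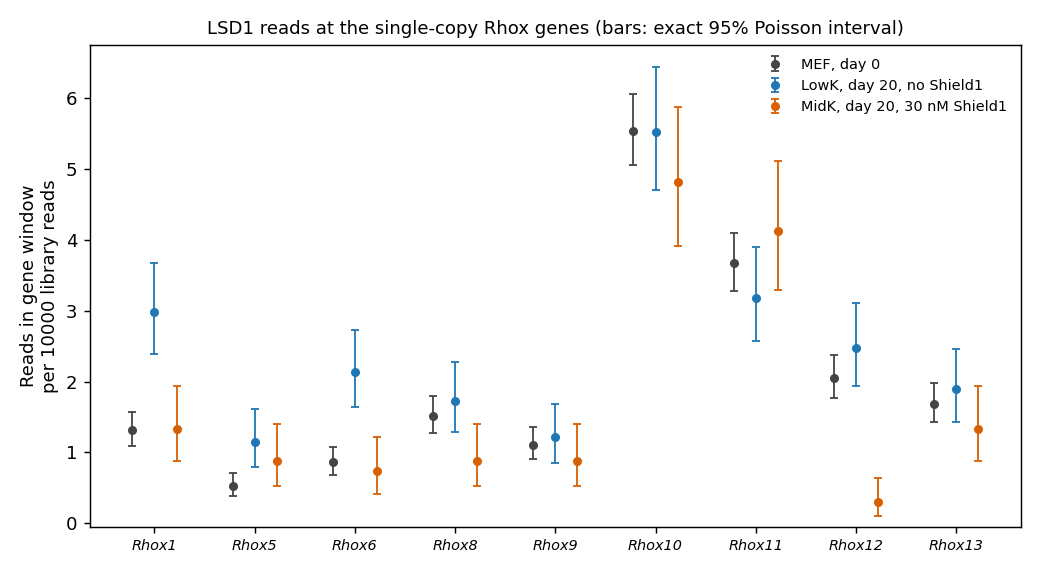
Reads in the window of each single-copy Rhox gene per 10000 library reads in MEF, LowK and MidK, with exact 95% Poisson intervals. Rhox10 is highest in each library at 4.82 to 5.54, and Rhox12 drops to 0.295 in MidK.

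In the alpha subcluster, Rhox1 (X:37213804 to 37222258) had 116 MEF, 88 LowK and 27 MidK reads, or 1.31, 2.98 and 1.33 per 10000. LowK lay above the other two, whose intervals overlapped (1.09 to 1.58 and 0.875 to 1.93). The LowK over MEF ratio was 2.13 (95% interval 1.60 to 2.84), called higher, and the MidK over MEF ratio was 1.37 (0.868 to 2.10). At thinned sites the LowK over MEF ratio was 1.91 and not called, and in the gene body alone it was 1.82 and not called. MidK over LowK was 0.656 (0.410 to 1.02), and it was called lower with library totals (0.445).

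In the beta subcluster, Rhox5 (X:37754608 to 37808878), also called Pem, is an androgen-responsive gene of the testis and epididymis and the founding member of the cluster. It had 47 MEF, 34 LowK and 18 MidK reads, or 0.532, 1.15 and 0.885 per 10000. Both day 20 levels were above that of MEF, but only the LowK interval (0.798 to 1.61) lay apart from that of MEF (0.391 to 0.708). The MidK interval (0.525 to 1.40) overlapped both. Relative to the median gene the ratios were 2.04 for LowK over MEF (1.27 to 3.23) and 2.26 for MidK over MEF (1.24 to 3.96), both called higher. Thinned sites gave 1.86 and 1.59, neither of them called, and the MidK call was also lost with library totals and without the deepest 1% of sites. The LowK call was lost from variant reads alone (1.99) and at a reliability of at least 20. In the gene body alone, with 24, 8 and 10 reads, LowK over MEF was 0.994, too few reads to be tested. Few reads carried the B6 base, 3 in MEF, 1 in LowK and 0 in MidK.

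Rhox6 (X:37827055 to 37829857), a placental gene also called Psx1, had 76, 63 and 15 reads, or 0.861, 2.13 and 0.738 per 10000. Only LowK stood apart from the others. Its ratio over MEF was 2.33 (1.64 to 3.30), called higher, and it was 2.81 and still called at thinned sites. MidK over LowK was 0.509 (0.269 to 0.905), just short of 2-fold, and was called lower with library totals and, at 0.253, at thinned sites. The window overlaps that of Rhox7a, with which it shared 34 of its LowK reads.

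Rhox8 (X:37874780 to 37890766), a Sertoli cell gene, had 134, 51 and 18 reads, and Rhox9 (X:37899097 to 37901770), a relative of Rhox6 also called Psx2, had 98, 36 and 18. The intervals of their ratios all included 1. Ratios were 1.07 and 0.793 for Rhox8 and 1.03 and 1.08 for Rhox9 in LowK and MidK over MEF. The related Rhox7a had 58, 40 and 15 reads and Rhox7b, annotated as a pseudogene, had 76, 36 and 9. Over whole windows and relative to the median X gene 0 of these 2 genes was called. With library totals Rhox7a was called higher in LowK over MEF (2.06) and Rhox7b lower in MidK over LowK (0.363). The Rhox7b body alone had 42, 9 and 0 reads and was called lower in MidK over MEF. Of the 9 single-copy genes, Rhox5 had the fewest reads in MEF and LowK.

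The gamma subcluster held the most reads per length, and the most listed sites, 52.8 per 10 kb in MEF. Rhox10 (X:38066475 to 38071688), a gene of the spermatogonial stem cell lineage, had 489, 163 and 98 reads. Per kb of window and 10000 library reads its level was 0.364, 0.363 and 0.317, while the median X gene had 0.0696, 0.0688 and 0.0491. The level of Rhox10 was above the upper quartile of X genes in all 3 libraries (0.0853, 0.104 and 0.0702). Its ratios were 0.938 (0.781 to 1.12) in LowK over MEF, 1.18 (0.942 to 1.47) in MidK over MEF and 1.29 (0.991 to 1.66) in MidK over LowK. A level here counts reads at listed sites, so it depends on how many sites a window holds.

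Rhox11 (X:38076598 to 38085139) lies next to Rhox10 and shared 212 of its 324 MEF reads, 80 of its 94 LowK reads and 68 of its 84 MidK reads with the Rhox10 window. The shared reads thus made up most of the Rhox11 level, and 212 of 489, 80 of 163 and 68 of 98 reads of Rhox10. Rhox11 had ratios of 0.816 (0.642 to 1.03), 1.53 (1.19 to 1.95) and 1.91 (1.41 to 2.59) in LowK over MEF, MidK over MEF and MidK over LowK. Its gene body alone had 79 MEF, 12 LowK and 0 MidK reads and was called lower in both day 20 libraries, against a ratio above 1 in MidK for the whole window. At thinned sites the LowK over MEF ratio was 0.470 and called lower. At a reliability of at least 20 Rhox11 was called higher in MidK over MEF (2.48) and over LowK (2.59), and the latter was also called from variant reads alone (2.10).

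The densest 500 bp of the Rhox10 window in MEF was X:38070001 to 38070500, inside the gene. It held 107 reads at 18 sites, 50 with the B6 base and 57 with the variant base. The same bin was densest in LowK, with 25 reads at 14 sites, of which 2 had the B6 base. In MidK the densest bin lay outside the gene body, at X:38073001 to 38073500, with 22 reads. In LowK another bin of the window, X:38072501 to 38073000, held 24 reads, and in MEF the densest MidK bin held 66. The place of the densest bin thus rests on few reads in LowK and MidK.

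Rhox12 (X:38104062 to 38110907) had 181, 73 and 6 reads, or 2.05, 2.47 and 0.295 per 10000. MidK stood far below the other two, and the interval of its level (0.108 to 0.642) did not reach theirs. The ratio was 0.196 (0.0708 to 0.434) in MidK over MEF and 0.176 (0.0625 to 0.401) in MidK over LowK, both called lower, and 1.13 (0.853 to 1.5) in LowK over MEF. The 6 MidK reads lay at 5 sites, against 76 sites in MEF and 55 in LowK. At thinned sites the ratios were 0.396 and 0.336 and neither was called.

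Rhox13 (X:38120840 to 38129966), a germ cell gene, lies beside Rhox12 and had 149, 56 and 27 reads. Unlike Rhox12 it was not called in any comparison. Its ratios were 1.06 (0.763 to 1.45), 1.07 (0.682 to 1.62) and 1.03 (0.626 to 1.66). Between the windows of Rhox12 and Rhox13 only 3 MEF reads were shared.

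The promoters of these neighbours show how few reads stood at the start sites themselves. Capitals mark the positions listed in any library, and the base printed is the B6 base on the gene's strand. In the Rhox12 promoter MEF had 8 reads at 2 sites and LowK and MidK had 0 reads. In the Rhox13 promoter MEF had 3 reads at 3 sites, LowK 6 at 3 and MidK 1 at 1, with no site in common. The Rhox10 promoter had 1 read in MEF, 0 in LowK and 1 in MidK, so most reads of its window lay elsewhere:
Rhox12 (chrX:38110858-38111157, minus strand): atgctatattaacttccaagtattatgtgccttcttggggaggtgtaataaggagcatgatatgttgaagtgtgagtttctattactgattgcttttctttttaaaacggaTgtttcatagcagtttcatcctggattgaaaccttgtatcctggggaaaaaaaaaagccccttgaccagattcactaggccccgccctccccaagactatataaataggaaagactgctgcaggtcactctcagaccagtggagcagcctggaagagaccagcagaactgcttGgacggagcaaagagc
Rhox13 (chrX:38120590-38120889, plus strand): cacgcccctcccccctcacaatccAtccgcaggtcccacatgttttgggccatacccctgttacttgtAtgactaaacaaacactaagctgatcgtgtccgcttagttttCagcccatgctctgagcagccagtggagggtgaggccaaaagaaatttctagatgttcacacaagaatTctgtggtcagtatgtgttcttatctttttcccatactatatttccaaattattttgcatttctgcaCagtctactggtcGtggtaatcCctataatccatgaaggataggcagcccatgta
Rhox10 (chrX:38066225-38066524, plus strand): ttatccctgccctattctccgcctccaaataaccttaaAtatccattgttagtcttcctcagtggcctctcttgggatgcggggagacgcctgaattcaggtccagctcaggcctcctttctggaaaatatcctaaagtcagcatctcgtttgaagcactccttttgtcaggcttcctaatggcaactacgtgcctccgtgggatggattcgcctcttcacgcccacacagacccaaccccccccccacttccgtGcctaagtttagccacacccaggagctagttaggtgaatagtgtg

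By number of calls, 3 of the 9 single-copy genes were higher and 0 lower in LowK over MEF, where 7.32% of the 1079 tested X genes were called higher and 6.3% lower. In MidK over MEF 1 was higher and 1 lower, with 9.64% and 9.73% of X genes called. In MidK over LowK 0 were higher and 1 lower, with 8.73% and 11.8% of 905 genes. With library totals the shares of X genes called higher and lower were 9.55% and 5.65%, 4.45% and 21.3%, and 2.65% and 29.2% in the 3 comparisons. Thinned sites gave 8.51% and 4.75%, 7.64% and 4.86%, and 7.29% and 10.2%. Gene bodies alone gave 10.2% and 6.62%, 9.77% and 7.66%, and 7.76% and 14.4%. Sites of reliability 20 or more had 16.3% and 12.1%, 16.6% and 15.3%, and 18% and 17.4%, the highest shares of calls in either direction except those called lower in MidK with library totals. The shares were 6.8% and 5.87%, 8.19% and 9.12%, and 7.3% and 11% without the deepest 1% of sites. Variant reads alone gave 5.54% and 5.54%, 6.58% and 6.95%, and 4.53% and 10.2%. The 9 genes' median log2 ratios were 0.10, 0.22 and 0.04, and those of all tested X genes were 0.01, 0.01 and 0.00. Pooled over their windows, each site counted once, the single-copy genes had 1393, 576 and 243 reads and ratios of 1.16 (1.05 to 1.28), 1.03 (0.894 to 1.18) and 0.902 (0.773 to 1.05). As a group the single-copy genes thus stayed close to the median X gene, with calls in single members only.

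Among the genes outside the cluster, those with the most similar pair of log2 ratios (LowK over MEF and MidK over MEF, 1042 candidates) were Mdrl for Rhox1, Dusp9 for Rhox5, 8030474K03Rik for Rhox6 and Dmrtc1b for Rhox12. Mdrl had a distance of 0.01 on the log2 scale with 78, 59 and 18 reads. Dusp9, a phosphatase gene, had a distance of 0.13 with 122, 94 and 44 reads, and 8030474K03Rik had 0.03 with 92, 75 and 18. Dmrtc1b was at 0.31 with 127, 63 and 4 reads, so no gene lay as close to Rhox12 as the others did to their members. The next in order were Gm41897 and Gm15482 for Rhox1, Gm52448 and Gm36046 for Rhox5, Fam50a and 4933407K13Rik for Rhox6, and Gm30649 and Arxes2 for Rhox12.

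The Rhox2, Rhox3 and Rhox4 copies held 1125, 346 and 215 reads over their merged windows. Reads in MidK and LowK gathered at different copies near the distal end of the block, and several copies were nearly empty in both. Of the 25 copies, 30 reads were reached by 15, 6 and 3 in MEF, LowK and MidK, and 3, 6 and 10 had no read. A copy with few MEF reads could therefore be called higher only when it was high in a day 20 library, and the counts below do not cover the block. Reads of 1 copy may come from another, so values for single copies are uncertain.

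**Figure D3:**
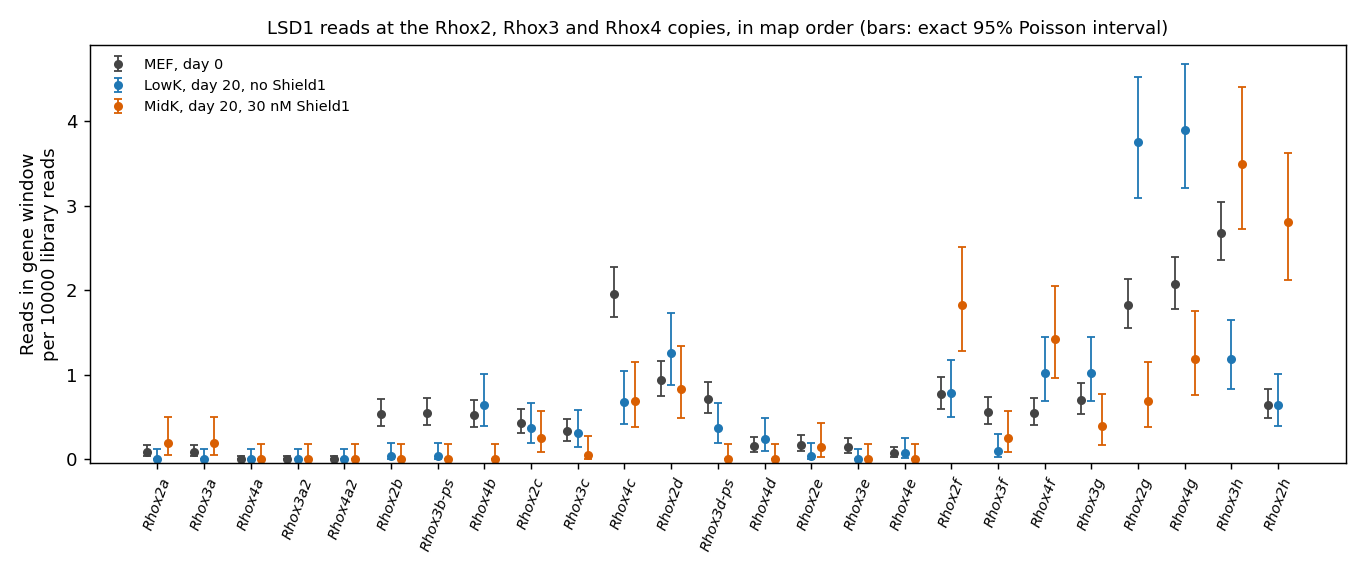
Reads in the window of each Rhox2, Rhox3 and Rhox4 copy per 10000 library reads, in map order, with exact 95% Poisson intervals, for MEF, LowK and MidK. LowK is highest at Rhox2g and Rhox4g at 3.76 and 3.90, and MidK is highest at Rhox3h and Rhox2h at 3.49 and 2.80.

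At the distal end, Rhox2h (X:37668997 to 37673277) had 57 MEF, 19 LowK and 57 MidK reads, or 0.645, 0.644 and 2.80 per 10000. MidK stood above both others, which were level. The ratio was 5.90 (4.01 to 8.67) in MidK over MEF and 6.42 (3.76 to 11.4) in MidK over LowK, both called higher. In MidK, 30 of these reads lay in 1 bin of 500 bp at X:37667001 to 37667500, which lies in the neighbouring Rhox3h. Thinned sites gave 3.18 in MidK over MEF, still called, and 2.84 in MidK over LowK, with too few reads to be tested. The Rhox2h body alone had 15, 8 and 7 reads. Its MidK ratios were 2.97 over MEF and 1.75 over LowK, also with too few reads to be tested.

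Rhox3h (X:37657688 to 37668764) had 237, 35 and 71 reads, or 2.68, 1.19 and 3.49 per 10000. LowK was the low library here. It was called lower in LowK over MEF (0.416, 0.283 to 0.594) and higher in MidK over LowK (4.34, 2.86 to 6.70), with 1.77 (1.34 to 2.31) in MidK over MEF. The last was called higher from variant reads alone (2.12) and at a reliability of at least 20 (4.52). It shared 54 of its MidK reads with Rhox2h, so the calls in MidK over LowK rest on the same reads. At thinned sites the LowK over MEF ratio was 0.851 and not called, and the MidK over LowK ratio was 1.83 with too few reads to be tested.

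Rhox2g (X:37639112 to 37643470) and Rhox4g (X:37646501 to 37651327) showed the opposite order. Rhox2g had 161, 111 and 14 reads, and Rhox4g had 183, 115 and 24. Per 10000 reads LowK stood highest at both, at 3.76 and 3.90, against 0.688 and 1.18 in MidK. In LowK the windows shared 111 reads, all of those of Rhox2g. MidK over LowK was 0.270 (0.143 to 0.472) for Rhox2g and 0.446 (0.275 to 0.698) for Rhox4g, both called lower and both still called at thinned sites. The Rhox4g call was lost without the deepest 1% of sites (0.622) and from variant reads alone (0.590). The bodies of the genes differed: that of Rhox4g alone had 60, 2 and 8 reads and was called lower in LowK over MEF (0.0994), while that of Rhox2g had 97, 43 and 6. MidK over LowK in the Rhox4g body was thus above 1, with too few reads to be tested. LowK over MEF was 1.94 (1.51 to 2.49) and 1.77 (1.39 to 2.24), below the 2-fold limit. Rhox2g was called higher in LowK over MEF with library totals (2.06), from variant reads alone (2.02) and at a reliability of at least 20 (2.84), and Rhox4g at that reliability (3.35). With library totals Rhox2g was also called lower in MidK over MEF (0.378).

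In the middle of the block, Rhox2f (X:37571421 to 37576159) had 68, 23 and 37 reads and was called higher in MidK over MEF (3.21, 2.09 to 4.86) and over LowK (3.44, 1.99 to 6.06). The Rhox2f body alone had 12, 20 and 10 reads. Its MidK ratios were 5.30 over MEF and 1 over LowK, with too few reads to be tested, so the call over LowK rests on the flanks. Rhox4f (X:37602895 to 37607686) had 48, 30 and 29 reads and was called higher in MidK over MEF (3.56, 2.17 to 5.77). Thinning left the MidK over MEF ratio of Rhox2f at 2.63, still called, and that of Rhox4f at 1.15. MidK over LowK was then 2.24 for Rhox2f, with too few reads to be tested. Rhox2f, Rhox4f and Rhox2h were the 3 copies called higher in MidK over MEF. Without the deepest 1% of sites Rhox4f was also called higher in LowK over MEF (2.09).

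Rhox3f (X:37581352 to 37585496) had 49, 3 and 5 reads and was called lower in LowK over MEF (0.172, 0.0343 to 0.534). Its gene body held no listed site and 0 reads in each library, so this call came from the flanks alone. Of its 49 MEF reads, 23 were shared with the Rhox2f window. Rhox4c (X:37480337 to 37485124) had 173, 20 and 14 reads and was called lower in LowK (0.325, 0.194 to 0.518) and in MidK over MEF (0.477, 0.256 to 0.823). MEF was the high library at both. At thinned sites Rhox3f had too few reads to be tested, and Rhox4c was not called in LowK, at 0.518, and was called in MidK with 0 reads. In MidK over MEF Rhox4c was not called in the gene body alone (0.909), from variant reads alone (0.636), without the deepest 1% of sites (0.786) or at a reliability of at least 20, where it turned to 1.32. Without the deepest sites its LowK over MEF ratio was 0.550 and not called, and that of Rhox3f turned above 1 with too few reads to be tested.

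A further 4 copies had 0 reads in MidK and at least 46 in MEF. Rhox2b (X:37411736 to 37416806) had 47, 1 and 0 reads. Rhox3b-ps (X:37417012 to 37426143) had 48, 1 and 0, of which 47 MEF reads were those of Rhox2b. Rhox4b (X:37432494 to 37437278), also called Ehox, a gene described in differentiating embryonic stem cells, had 46, 19 and 0. Rhox3d-ps (X:37503844 to 37507806) had 63, 11 and 0. The body of Rhox3d-ps held no listed site and 0 reads in each library, and 41 of its 63 MEF reads were shared with Rhox2d. LowK over MEF was 0.0599 (0.00148 to 0.350) for Rhox2b, called lower, and 1.16 (0.643 to 2.02) for Rhox4b.

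For the copies with 0 reads in MidK a fold against MEF is a lower bound, taken against 3 reads in that library. Rhox2b was at least 2.66-fold lower, Rhox3b-ps at least 2.71-fold, Rhox4b at least 2.60-fold and Rhox3d-ps at least 3.56-fold lower, and each was called lower. In MidK 3 reads are 0.148 per 10000, and the exact 95% upper limit of 0 reads is 0.181. The upper limits of the 4 exact ratio intervals were 0.482, 0.471, 0.493 and 0.356. At thinned sites none of these 4 was called in MidK over MEF, while Rhox2b and Rhox3b-ps were still called in LowK over MEF. The MidK calls of Rhox2b and Rhox3b-ps were lost from variant reads alone, and that of Rhox4b without the deepest 1% of sites. Rhox3d-ps was called lower in LowK over MEF without the deepest sites (0.204).

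The remaining copies were Rhox2a, Rhox3a, Rhox2c, Rhox2d, Rhox2e, Rhox3c, Rhox3e, Rhox3g, Rhox4d and Rhox4e, and the 3 in the 160.9 kb stretch with no listed site. They had 0 to 83 reads in MEF, 0 to 37 in LowK and 0 to 17 in MidK. Rhox2d was the best read of them, at 83, 37 and 17 reads, with ratios of 1.25 and 1.21 over MEF. Only Rhox2c, Rhox2d and Rhox3g had enough reads to be tested, and none of the 3 was called.

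By count over all listed sites, 0 copies were higher and 5 lower of 15 tested in LowK over MEF, 3 higher and 5 lower of 15 in MidK over MEF, and 3 higher and 2 lower of 8 in MidK over LowK. The shares over all X genes given above were 7.32% and 6.3%, 9.64% and 9.73%, and 8.73% and 11.8%. The LowK over MEF split depended on the setting. It was 2 higher and 3 lower of 7 at a reliability of at least 20, where 16.3% and 12.1% of X genes were called, and 1 higher with library totals, without the deepest 1% of sites and from variant reads alone. Neighbouring copies share reads, so these calls are fewer than their number in independent signals. The median log2 ratio of the tested copies was -0.09 in LowK over MEF and 0.51 in MidK over LowK. In MidK over MEF it was -0.37 without the 4 copies at 0 reads and -0.39 with them at their bound.

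**Figure D4:**
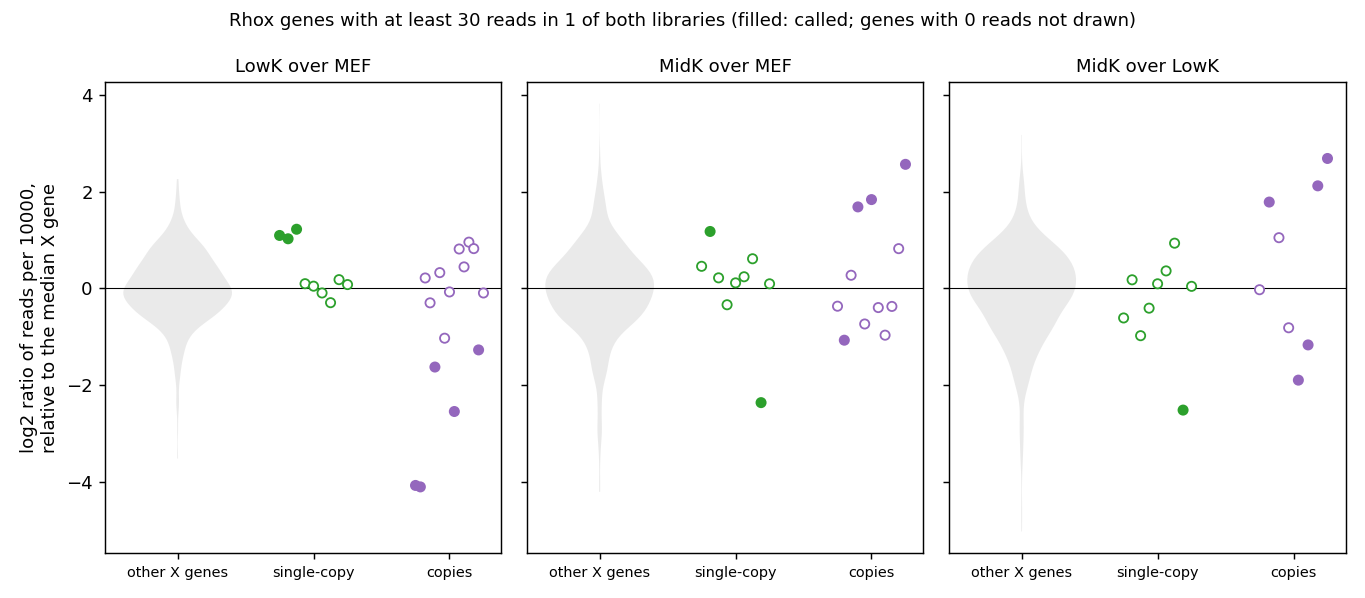
Log2 ratios of reads per 10000, relative to the median X gene, for the tested single-copy Rhox genes and copies beside the other tested X genes, in the 3 comparisons. Filled points were called and genes with 0 reads are not drawn. The copies spread from -4.09 to 0.96 in LowK over MEF, while the single-copy genes lie between -0.29 and 1.22.

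Summed over a family, which takes out the placing of reads among its own copies, the extremes were smaller. Windows of different families overlap, so a read can count in more than 1 family and the family ratios are not separate signals. The 111 LowK reads shared by Rhox2g and Rhox4g count in both Rhox2 and Rhox4. The 54 MidK reads shared by Rhox3h and Rhox2h count in both Rhox3 and Rhox2. Rhox2 windows had 476, 203 and 137 reads and ratios of 1.20 (1.01 to 1.42) in LowK over MEF, 1.70 (1.39 to 2.06) in MidK over MEF and 1.44 (1.15 to 1.80) in MidK over LowK. Rhox4 windows had 470, 193 and 67 reads and ratios of 1.16 (0.972 to 1.37), 0.841 (0.641 to 1.09) and 0.742 (0.554 to 0.985). None of these 6 ratios reached 2-fold in either direction. Thinning gave Rhox4 ratios in MidK of 0.339 over MEF and 0.315 over LowK.

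Rhox3 windows had 508, 89 and 89 reads. They were called lower in LowK over MEF, at 0.493 (0.389 to 0.619), and higher in MidK over LowK, at 2.14 (1.58 to 2.90), with 1.03 (0.816 to 1.30) in MidK over MEF. Rhox3 was thus the family low in LowK. At thinned sites the 2 called ratios were 0.736 and 1.23. All copies together had ratios of 0.865 (0.765 to 0.977), 1.13 (0.970 to 1.31) and 1.33 (1.12 to 1.58). MidK over MEF was 2.06 (1.64 to 2.56) at a reliability of at least 20, and below 1 with library totals (0.830) and at thinned sites (0.904). MidK over LowK also fell below 1 with library totals (0.902) and at thinned sites (0.980).

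Of the 6 other pseudogene-type entries, all but Rhox7-ps1 lie among the functional genes. Rhox7-ps1 (X:38296866 to 38306028) lies beyond Rhox13 and forms the distal end of the cluster span. Rhox7-ps2, beside Rhox2h and sharing 24 of its 44 MidK reads with it, was called higher in MidK over MEF (2.40, 1.65 to 3.44) and over LowK (3.14, 1.93 to 5.17). Rhox11-ps1 was higher in MidK over MEF (2.62, 1.55 to 4.32). Rhox2-ps (0.474, 0.260 to 0.810) and Rhox11-ps3 (0.331, 0.184 to 0.557) were lower in LowK over MEF. None of these calls was kept at thinned sites, where Rhox2-ps was at 0.366 and further from 1, and Rhox7-ps2 in MidK over LowK had too few reads to be tested. Library totals also ended the calls of Rhox7-ps2 and Rhox11-ps1 in MidK over MEF and of Rhox2-ps, and those of Rhox2-ps and Rhox11-ps3 were lost without the deepest 1% of sites, where Rhox2-ps was called higher in MidK over MEF (2.07). The body of Rhox7-ps2 alone had 43, 4 and 0 reads and was called lower in both day 20 libraries, the reverse of its window in MidK. Over their whole windows Rhox11-ps2 and Rhox7-ps1 met the rule in no comparison. The Rhox11-ps2 body alone had 34, 12 and 0 reads and was called lower in MidK over MEF. At thinned sites Rhox7-ps1 was called higher over MEF in LowK (2.06) and in MidK (2.10). Its body alone was called higher in both as well (2.46 and 2.39). At a reliability of at least 20 Rhox7-ps1 was called higher in LowK over MEF (2.38).

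The split between the B6 base and the variant base was the other measure of the files. Each listed site has a variant read, so B6 reads are under-represented and shares are compared only between regions and libraries read the same way. In MEF 29.0% of reads in the copies carried the B6 base (95% Clopper-Pearson interval 26.3% to 31.7%), against 19.4% (17.3% to 21.6%) in the single-copy Rhox windows, 14.6% (13.7% to 15.4%) at the neighbours and 14.2% over chromosome X. LowK had 17.9% (14.0% to 22.4%), 7.99%, 8.17% and 9.85%. The copies thus had the highest B6 share of these 4 regions in MEF and LowK, with reads per site of 3.69 and 2.56 against 2.14 and 1.58 over the chromosome. A deeper site is more likely to show both bases, and the part of depth in these shares was not tested.

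MidK differed from this order. Its B6 share was 18.9% over chromosome X and 17.7% (15.7% to 20.0%) at the neighbours, but 10.3% (6.77% to 14.8%) in the single-copy Rhox windows and 11.2% (7.28% to 16.2%) in the copies. The Rhox windows thus lay below the rest of the chromosome in MidK and above it in MEF, with reads per site of 1.59 and 1.71 in the Rhox windows and on the chromosome in MidK. Of the 50 MidK Rhox sites with at least 3 reads, 60.0% held a B6 read (45.2% to 73.6%), against 83.0% on the chromosome. In the Rhox2g and Rhox4g windows 0 of 14 and 0 of 24 MidK reads carried the B6 base. Those reads lay at 13 and 23 sites, each with a variant read, so almost none could carry the B6 base. The 2 windows shared 13 of the MidK reads. The B6 shares of 21.6% and 20.9% in LowK and 29.2% and 30.1% in MEF came from deeper sites and are not comparable.

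**Figure D5:**
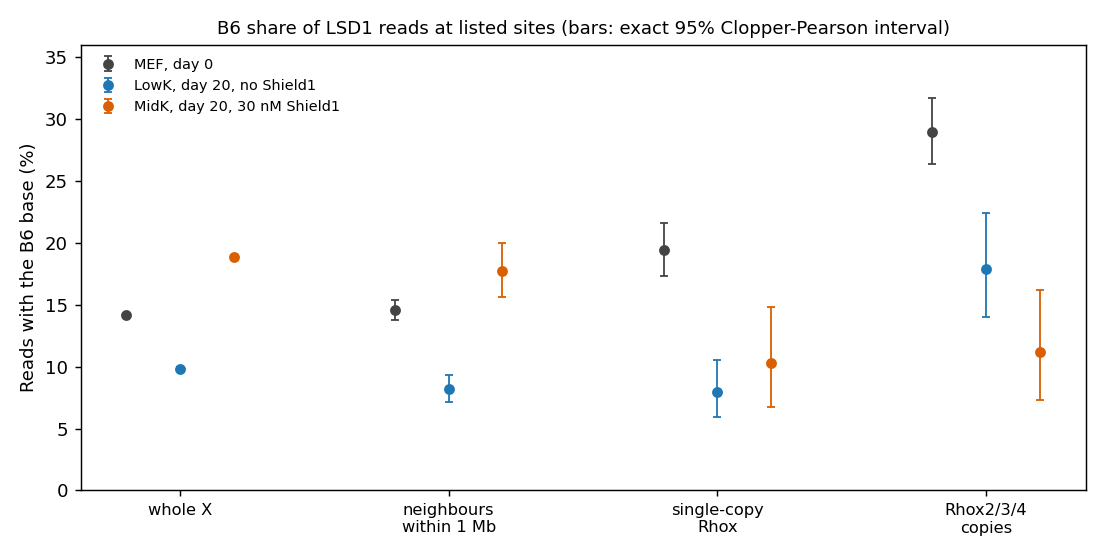
Percent of reads with the B6 base at listed sites in the whole X, the neighbour windows, the single-copy Rhox windows and the Rhox2, Rhox3 and Rhox4 windows, with exact 95% Clopper-Pearson intervals for MEF, LowK and MidK. MEF rises to 29.0% in the copies, and MidK falls from 18.9% on the whole X to 10.3% and 11.2% in the Rhox windows.

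The shares were also read at sites listed in 2 libraries with the same variant base, which removes the difference in site lists. At the 71 such sites of MEF and MidK in the Rhox windows, 28.1% of 224 MEF reads carried the B6 base (22.3% to 34.5%) and 3.85% of 104 MidK reads did (1.06% to 9.56%). Over chromosome X the 2 shares at 19741 sites were 17.7% and 16.2%, and at the 158 sites of the neighbours 15.3% and 13.2%. At the 132 sites of MEF and LowK the Rhox shares were 19.1% (15.1% to 23.5%) and 11.2% (7.42% to 15.9%), and those of chromosome X were 15.8% and 9.60%. The LowK difference at Rhox was thus of the size seen over the chromosome, and the MidK difference was larger than the chromosome's. Depth was not equal at these sites. The 71 Rhox sites held 224 MEF and 104 MidK reads, and the 19741 sites of chromosome X held 49713 and 35406. Each site needs a variant read, and the part of depth in these differences was not tested. LowK and MidK shared 41 Rhox sites, where 7.5% (2.80% to 15.6%) and 8.11% (3.03% to 16.8%) of reads carried the B6 base, both below the 15.9% and 22.8% over chromosome X.

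By gene, the B6 share in MEF was highest among single-copy genes at Rhox10, at 30.3% of 489 reads. It was 11% of 163 in LowK and 10.2% of 98 in MidK. Rhox11, which shares reads with it, had 24.1%, 16.0% and 11.9%, and Rhox8 had 22.4%, 15.7% and 27.8%. Rhox12 and Rhox13 had 12.7% and 12.1% in MEF and 1.37% and 1.79% in LowK. Among single-copy genes the highest MEF shares thus stood at Rhox10, Rhox11 and Rhox8.

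Sites with at least 2 reads of each base, up to 20 reads, 1 per 300 bp, and an untied majority from at least 5 reads were few. In MEF 53 Rhox sites qualified, and the variant base led at 17 of them (32.1%, 19.9% to 46.3%). LowK had 13 such sites, with the variant base ahead at 8 (61.5%, 31.6% to 86.1%). MidK had 5, with 1 (20.0%, 0.505% to 71.6%). Over chromosome X the shares were 47.9%, 44.2% and 22.6%. In MEF the upper bound at Rhox lay under the chromosome's share, and in LowK and MidK the intervals took it in. At sites with a reliability of at least 20 the MEF share at Rhox was 50%.

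Whether a listed variant base is the base of another copy was looked up in the promoters by exact matches of 21 bases. Of 18 listed positions in copy promoters with 10 bases of promoter on both sides, the 21 bases with the variant base matched another Rhox promoter at 1, in Rhox4b, while the 21 bases with the B6 base recurred in another Rhox promoter at 6. At the 12 positions in single-copy promoters both counts were 0. The promoters cover only a small part of the copies, and the sequence of the variant strain was not used here. Of the copies with a matched promoter, Rhox4b, Rhox2g, Rhox4g and Rhox2h had a listed site in it. In the Rhox2g and Rhox2h promoters below, which hold most of them, capitals mark the listed positions:
Rhox2g (chrX:37643421-37643720, minus strand): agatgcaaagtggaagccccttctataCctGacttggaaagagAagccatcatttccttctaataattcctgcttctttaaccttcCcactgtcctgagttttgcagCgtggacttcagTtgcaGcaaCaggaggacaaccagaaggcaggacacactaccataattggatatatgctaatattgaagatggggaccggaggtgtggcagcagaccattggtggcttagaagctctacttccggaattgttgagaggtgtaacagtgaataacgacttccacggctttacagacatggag
Rhox2h (chrX:37673228-37673527, minus strand): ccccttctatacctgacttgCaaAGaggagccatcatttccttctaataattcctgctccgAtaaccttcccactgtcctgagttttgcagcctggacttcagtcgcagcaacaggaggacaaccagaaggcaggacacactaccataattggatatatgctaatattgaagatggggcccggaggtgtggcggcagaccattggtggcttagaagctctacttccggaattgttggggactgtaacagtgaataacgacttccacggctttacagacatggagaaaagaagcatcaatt

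The Rhox2g promoter had 12 MEF, 9 LowK and 0 MidK reads, and the Rhox2h promoter had 4, 2 and 6. These are too few reads for a call.

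The site lists of the libraries overlapped little. In the single-copy Rhox windows 97 sites were shared by MEF and LowK, 27.6% of the LowK sites, and in the copies 16 were, 11.9% of them. For MidK 28.5% and 6.90% of its sites were also listed in MEF. Over chromosome X these shares were 20.3% and 16.7%, so the copies had the lowest share with MEF. Of the LowK sites, MidK also listed 9.63% in the copies, 7.39% in the single-copy windows and 6.08% over chromosome X. All 15 Rhox sites listed in all 3 libraries lay in single-copy windows, and the copies had 0, so day 20 and MEF values in the copies come mostly from different positions.

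Set beside other genes of their kind, 1 of 6 X-linked homeobox genes outside the cluster was higher and 1 lower in LowK over MEF, 0 and 0 in MidK over MEF, and 1 and 2 in MidK over LowK. Pou3f4, a neural POU factor gene, was called higher in LowK over MEF with a log2 ratio of 1.41 and 38, 36 and 4 reads, and Tgif2lx1, a germ cell homeobox gene, lower with -1.85 and 152, 15 and 31 reads. Esx1, a placental and germ cell homeobox gene, was at 0.89 and 0.96 in LowK and MidK over MEF and not called. Of 10 X-linked germline genes, 0 were higher and 2 lower in LowK over MEF (Usp26 and Tex13a), 3 higher (Fmr1nb, Taf7l and Tex13a) and 1 lower (Nxf2) in MidK over MEF, and 2 higher and 1 lower of 9 in MidK over LowK. Their median log2 ratios were 0.18, 0.68 and 0.48.

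Of the X-linked chromatin genes that act with or beside LSD1, 0 of 7 were called in each comparison. The placental gene Plac1 had log2 ratios of -0.51 in LowK and -0.75 in MidK over MEF and was not called. Of the 28 neighbours, 2 were higher and 0 lower in LowK over MEF, and 3 higher and 4 lower in MidK over MEF. In MidK over LowK 1 was higher and 3 lower of 26. Among them Ndufa1, a gene of respiratory complex I, had 96, 49 and 4 reads, and Zbtb33, the gene of the methyl-DNA binding factor Kaiso, had 114, 55 and 8. Both were called lower in MidK over MEF and over LowK, as Rhox12 was. Of the cell type markers, 1 of 8 fibroblast genes was higher and 1 lower in LowK over MEF, 0 and 2 in MidK over MEF, and 0 and 1 of 7 in MidK over LowK. Of 6 pluripotency genes 3 were higher and 0 lower in LowK over MEF (Tfe3, Eras and Dusp9), 1 and 0 in MidK over MEF, and 0 and 2 of 5 in MidK over LowK (Tfe3 and Eras). Of 6 immune genes 1 was higher and 0 lower, 0 and 0, and 0 and 1. The shares of all X genes called higher and lower in these comparisons were 7.32% and 6.3%, 9.64% and 9.73%, and 8.73% and 11.8%.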

How the data were processed

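The submitters' processing notes name BWA and mm10, and the series' design text names bcftools mpileup for the variant calls. How duplicates were treated, which filters applied and which versions ran are not stated there. The deposited counts are, per the file headers, the depth and the reads of the B6 and the variant base at each position. The deposited reliability score of the variant calls served only in an alternative, and in the MidK file its header carries another prefix than the other columns. Single-base sites listed once were kept; other entries made up 6.97%, 6.13% and 5.56% of the MEF, LowK and MidK lists. At all 2260 listed sites in chromosome X promoters, the B6 base matched GRCm38.p6.

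Windows, calls and ratios were computed in Python 3.11.15 with SciPy 1.17.1 over 1255 protein-coding and long noncoding X genes and the other Rhox entries. The median log2 ratio of tested X genes from library totals, which the scaling removes, was 0.09, -0.44 and -0.56 in LowK over MEF, MidK over MEF and MidK over LowK. Ratio intervals are exact conditional ones, and the call rule was tested on simulated data. Full values are given for single-copy genes, families and called copies, and like genes are the 3 nearest in both log2 ratios over MEF. The members and lists were chosen with earlier results of these data known. A single gene of the lists, with its values, is left out here.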

Additional observations from a re-analysis of the deposited data

Results flagged for a closer look

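Insertion and deletion entries were left out of every comparison. The Rhox windows held 57 of them in MEF, 36 in LowK and 13 in MidK, of which 8, 5 and 3 lay in the Rhox2, Rhox3 and Rhox4 windows. They drew attention as a signal in data that no comparison used, and no control library was used that could set a background. They made up 5.04%, 5.65% and 3.42% of the Rhox entries, against 6.97%, 6.13% and 5.56% over chromosome X.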

How the results depend on the processing

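Of 95 recomputed values, 58 stayed within their limits and 37 moved, and the cause was not tested unless the setting itself shows it. Counts of single-copy calls are given first. For LowK over MEF the count of 3 of 9 tested, all higher, became 0 of 1 tested at sites listed in all 3 libraries. In gene bodies it was 1 of 6 tested, where 0 were higher and 1, Rhox11, was lower. At thinned sites it was 2, 1 higher and 1 lower. For MidK over MEF the count of 2 became 1 with library totals, 0 at thinned sites and 1 without the deepest 1% of sites. It was 0 at sites listed in all 3 libraries, where only 1 gene was tested. For MidK over LowK the count of 1 became 3 with library totals and 2, 1 of them higher, from variant reads alone, an alternative chosen after seeing the data. Copies called in LowK over MEF went from 5 of 15 tested to 2 of 13 at thinned sites and 3 of 4 in gene bodies. Those in MidK over MEF went from 8 of 15 to 3 of 13 at thinned sites, 5 of 8 at a reliability of at least 20 and 0 of 4 in gene bodies. In MidK over LowK 5 of 8 became 2 of 2 at thinned sites and 2 of 2 in gene bodies. Fewer copies were also tested in these settings, but at thinned sites over MEF their number fell only from 15 to 13. Why the counts fell was not tested.

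The pooled single-copy ratio of LowK over MEF was 1.32 without the deepest sites, 1.32 at high reliability, 0.544 at sites listed in all 3 libraries and 1.04 in gene bodies. MidK over MEF gave 0.758 with library totals, 1.30 at high reliability, 0.616 at sites listed in all 3 and 0.771 in gene bodies. MidK over LowK gave 0.613 with library totals, 1.1 at high reliability, 1.13 at sites listed in all 3 and 0.695 in gene bodies. The pooled copies had a LowK over MEF ratio of 1.17 at high reliability. Their MidK over MEF ratio was 0.830 with library totals, 0.904 at thinned sites, 1.38 without the deepest sites, 2.06 at high reliability and 1.41 from variant reads alone. In MidK over LowK they gave 0.902 with library totals, 0.980 at thinned sites and 1.96 at high reliability. The variant majority in MEF was 50% at high reliability. Copies have 0 sites listed in all 3 libraries, so that setting gave them no value.

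No paired analysis was possible because each group holds 1 library. Depth limits MidK most, where 3 of 25 copies reached 30 reads.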
